A study of Mus musculus with 6 samples.

Results

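The 5 mature miRNAs described here are miR-193b-3p (MIMAT0004859), miR-193a-3p (MIMAT0000223), miR-365-3p (MIMAT0000711), miR-455-5p (MIMAT0003485) and miR-455-3p (MIMAT0003742) of the mouse, which have been tied to brown and beige fat. They were chosen by their miRBase accessions from the 707 mature miRNAs counted by miRNA-seq in white adipose tissue (WAT). The rule did not use their counts, but earlier results of these data were known when the choice was made. The WAT came from male ApoE-deficient (ApoE-/-) mice of both groups, which lack the apolipoprotein that clears lipoprotein remnants from the blood. The CIH group (n = 3 libraries) was kept for 8 weeks under chronic intermittent hypoxia (CIH), in which inspired oxygen was lowered from 21% to about 6% and restored in repeated cycles, a model of obstructive sleep apnea. The control group (n = 3 libraries) was not given CIH, and neither the fat depot nor the age of the mice is given in the sources used here. The sources do not state that each library is a separate mouse, so the p-values below measure the spread between these libraries. The comparison asks how CIH alters miRNAs of WAT.

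White adipocytes store lipid, whereas brown and beige adipocytes burn it to make heat through the mitochondrial protein Ucp1, and beige cells can arise inside WAT. A miRNA binds mRNAs mainly through its seed, the bases near its 5′ end, and lowers the level or translation of those mRNAs. miR-193b and miR-365 are transcribed as a pair and are enriched in brown over white fat. Blocking them impaired the differentiation of brown preadipocytes in culture, although mice without the pair still formed brown fat. miR-455 is induced during brown adipogenesis and by cold, and it promotes a brown fat program in progenitor cells. It is also known from cartilage, and its host gene Col27a1 encodes a fibrillar collagen.

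The mature sequences are shown because they decide which of the 5 can share targets and reads. Each is printed 5′ to 3′ as in RefSeq (GRCm38.p6), with the seed (bases 2 to 8) in capitals.
miR-193b-3p: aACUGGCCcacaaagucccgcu
miR-193a-3p: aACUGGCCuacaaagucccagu
miR-365-3p: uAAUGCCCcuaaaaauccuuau
miR-455-5p: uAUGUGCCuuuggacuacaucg
miR-455-3p: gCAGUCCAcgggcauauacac

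miR-193a-3p and miR-193b-3p have the same seed and are identical at 19 of 22 bases. With the base of miR-193a-3p first and positions counted from the 5′ end, the 3 differences are U9C, A20G and G21C. All of them lie outside the seed, so that a read cut short before base 20 is told apart by 1 base only. miR-365-3p and the 2 arms of miR-455 each have a seed of their own. In the RefSeq table of 1679 mature mouse miRNAs, no miRNA other than these 2 has the seed of miR-193. The seeds of miR-365-3p and miR-455-3p are found in no other entry, and that of miR-455-5p is shared with miR-5129-3p.

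The 5 miRNAs come from 5 hairpins at 3 loci, all on the plus strand of GRCm38. Mir193a (chromosome 11, 79711969 to 79712034) is followed by Mir365-2 (79726400 to 79726511) after 14365 bases, and GENCODE release M21 has no other gene over either hairpin. Mir193b (chromosome 16, 13449523 to 13449601) is followed by Mir365-1 (13453840 to 13453926) after 4238 bases, and both lie opposite an intron of the antisense gene Gm15738. Mir455 (chromosome 4, 63256851 to 63256932) lies in an intron of Col27a1. The hairpins of the 2 pairs are shown with the counted arm in capitals, because miR-365-3p is the same molecule from either locus whereas the miR-193 molecules differ.
Mir193a: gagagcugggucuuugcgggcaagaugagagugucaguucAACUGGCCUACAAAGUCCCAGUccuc
Mir365-2: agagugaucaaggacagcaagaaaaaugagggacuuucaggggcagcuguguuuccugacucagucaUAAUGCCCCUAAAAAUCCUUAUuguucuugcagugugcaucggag
Mir193b: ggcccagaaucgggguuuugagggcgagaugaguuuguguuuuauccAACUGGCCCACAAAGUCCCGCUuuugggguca
Mir365-1: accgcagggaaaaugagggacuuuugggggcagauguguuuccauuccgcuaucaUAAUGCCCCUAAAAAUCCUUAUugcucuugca

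Reads of miR-365-3p therefore sum over both pairs, while reads of miR-193a-3p and miR-193b-3p each stand for 1 of them.

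The authors deposited raw read counts per mature miRNA. The libraries held 636963 to 4783768 counts, and control 2 was the deepest. Levels are given as CPM (read counts scaled to a common library total) after TMM normalization, which corrects library totals for differences in composition and whose factors ran from 0.575 in control 1 to 1.45 in CIH 3. All 5 miRNAs were among the 633 that reached 10 counts over the libraries together and that were tested with edgeR's quasi-likelihood test. The counts are listed by accession, with no table of names, so marker miRNAs of fat and of other cell types, and other miRNAs of brown fat, were not analysed here.

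Between the groups, none of the 5 miRNAs passed the test, and the widest differences came from control 2. This library had higher levels of miR-193b-3p, miR-193a-3p and miR-365-3p than each of the other 5 libraries, and the lowest level of miR-455-5p. Benjamini-Hochberg adjusted p-values of edgeR's quasi-likelihood test lay between 0.882 and 0.889 for the 5. Over all 633 miRNAs, 0 were called at an adjusted p-value under 0.05 (0%), and 16 (2.53%) had an unadjusted p-value under 0.05 with a change of at least 1.5-fold. None of the 5 was among these 16. The TMM-normalized levels of CIH and control overlapped for all 5, against 51 of the 633 miRNAs (8.06%) without overlap.

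**Figure D1:**
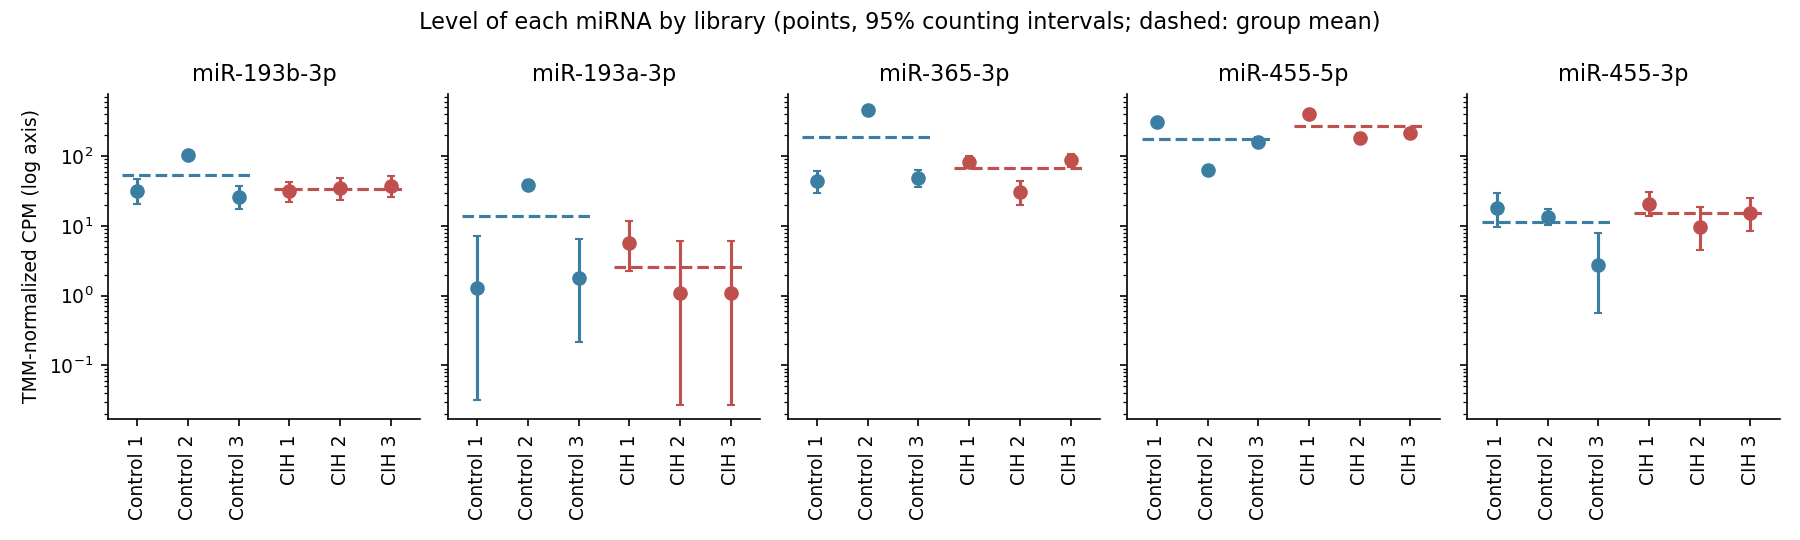
TMM-normalized CPM on a log axis of each miRNA in the 3 control (blue) and 3 CIH (red) libraries, with 95% Poisson intervals of the count (counting error only) and the group mean as a dashed line. Control 2 lies above the other 5 libraries for miR-193b-3p, miR-193a-3p and miR-365-3p and below them for miR-455-5p.

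miR-365-3p, the partner that both pairs share, was counted 34, 1917 and 54 times in control 1, 2 and 3 and 103, 28 and 80 times in CIH 1, 2 and 3. These correspond to 43.3, 462.5 and 48.7 CPM in the control libraries and 82.7, 30.3 and 86.8 CPM in the CIH libraries. Control 2 was high, and the other 2 control libraries lay within the range of the CIH libraries. The control mean was 184.8 ± 240.5 CPM and the CIH mean 66.6 ± 31.5 CPM (SD, n = 3 each). The log2 fold change was -1.47 (standard error 1.09, 95% interval -4.08 to 1.13, adjusted p = 0.882, edgeR). Without control 2 it was 0.60.

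miR-193b-3p, from the chromosome 16 pair, was counted 25, 424 and 29 times in control 1, 2 and 3 and 39, 32 and 34 times in CIH 1, 2 and 3. In the same order, its level was 31.8, 102.3 and 26.1 CPM under control and 31.3, 34.6 and 36.9 CPM under CIH. Apart from control 2, the 5 libraries lay between 26.1 and 36.9 CPM, and their 95% Poisson intervals overlapped. The 3 CIH libraries had a coefficient of variation of 8.15%, the smallest among the 5 miRNAs. That closeness depended on the scaling. As a share of library totals, CIH 1, 2 and 3 had 24.7, 43.4 and 53.4 CPM, and control 1 and 3 had 18.3 and 36.6 CPM. The 39 counts of CIH 1 have a 95% Poisson interval of 27.7 to 53.3 counts, so a spread this small is not resolved at this depth. After TMM normalization, the control mean was 53.4 ± 42.4 CPM and the CIH mean 34.3 ± 2.79 CPM (SD, n = 3 each). The log2 fold change was -0.65 (standard error 0.69, 95% interval -2.31 to 1.01, adjusted p = 0.882, edgeR). Without control 2 it was 0.32.

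miR-193a-3p, from the chromosome 11 pair, was counted 1, 162 and 2 times in control 1, 2 and 3 and 7, 1 and 1 times in CIH 1, 2 and 3. The level was 39.1 CPM in control 2 and between 1.08 and 5.62 CPM in the other 5. A count of 1 has a 95% Poisson interval of 0.0253 to 5.57 counts, so the order of the libraries with 1 or 2 counts was not resolved at this depth. Control 2 held 92.7% of the summed level of the control group, against 83.4% for miR-365-3p and 63.8% for miR-193b-3p. The log2 fold change was -2.41 (standard error 1.496, 95% interval -5.99 to 1.17, adjusted p = 0.882, edgeR), and without control 2 it was 0.79.

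Thus all 3 miRNAs of the 2 pairs had lower group means under CIH, and all 3 fold changes turned positive without control 2. The adjusted p-value of each was then 0.968 (edgeR). Over all miRNAs the median log2 fold change was 0.07 with all libraries and 0.29 without control 2. DESeq2 gave no p-value for miR-193a-3p and miR-365-3p.

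**Figure D2:**
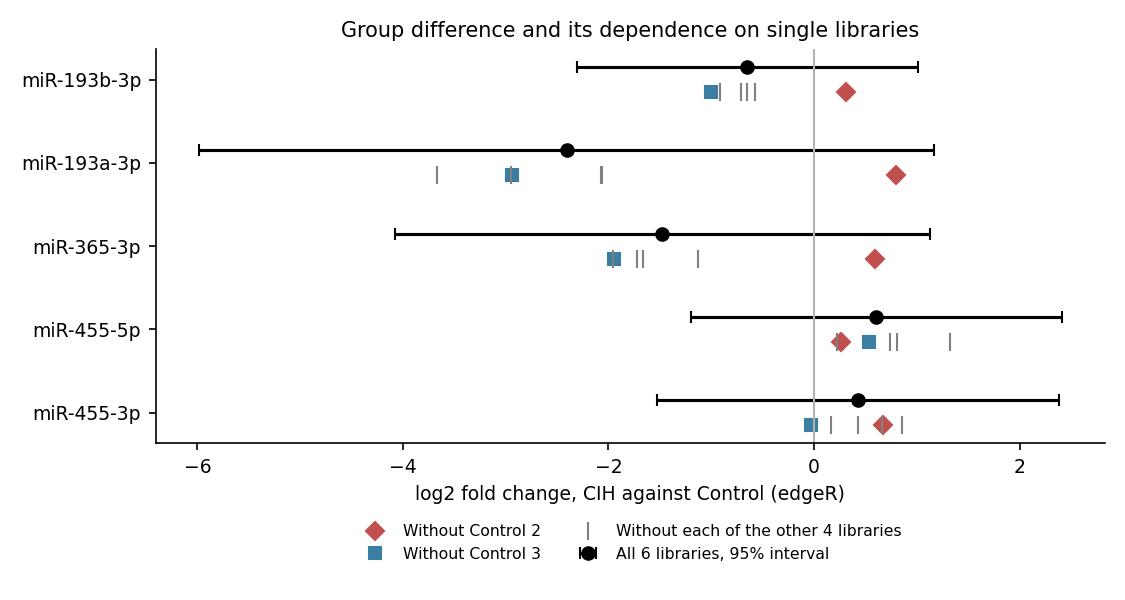
Log2 fold change of CIH against control for each miRNA from edgeR, with its 95% interval from all 6 libraries (black), and the value after leaving out control 2 (red diamonds), control 3 (blue squares) or each of the other 4 libraries (grey ticks). Every interval includes 0, and the values of miR-193b-3p, miR-193a-3p and miR-365-3p move from -0.65, -2.41 and -1.47 to 0.32, 0.79 and 0.60 without control 2.

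miR-455-5p was counted 239, 259 and 177 times in control 1, 2 and 3 and 506, 168 and 196 times in CIH 1, 2 and 3. In the same order, its level was 304.1, 62.5 and 159.5 CPM under control and 406.4, 181.5 and 212.6 CPM under CIH. Control 1 lay above CIH 2 and CIH 3, so the groups overlapped. The control mean was 175.4 ± 121.6 CPM and the CIH mean 266.8 ± 121.8 CPM (SD, n = 3 each). The log2 fold change was 0.61 (standard error 0.75, 95% interval -1.195 to 2.41, adjusted p = 0.882, edgeR).

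The overlap depended on the scaling for both arms of miR-455, of which the 5p arm is given first. As a share of library totals, the control libraries had 175.0, 54.1 and 223.2 CPM and the CIH libraries 320.7, 227.8 and 307.7 CPM. On that scale the groups did not overlap, with CIH higher, for miR-455-5p and miR-455-3p, 2 of the 5 miRNAs. Of the 633 miRNAs tested, 23 (3.63%) did not overlap with CIH higher, and 43 did not overlap in either direction. miR-455-5p and miR-455-3p are arms of the same hairpin and are not separate cases. For miR-455-5p, the gap between control 3 and CIH 2 was small beside their counting intervals, which were 151.9 to 205.1 counts for the 177 of control 3 and 143.6 to 195.4 counts for the 168 of CIH 2. The log2 fold change was 0.92 with library totals (adjusted p = 0.972, edgeR) and 0.0097 with upper-quartile factors (adjusted p = 0.997, edgeR). The median over all miRNAs was 0.33 and -0.52 with these factors.

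miR-455-3p, from the other arm of the same hairpin, was counted 14, 56 and 3 times in control 1, 2 and 3 and 26, 9 and 14 times in CIH 1, 2 and 3. In the same order, its level was 17.8, 13.5 and 2.70 CPM under control and 20.9, 9.72 and 15.2 CPM under CIH. Control 3 was the lowest, and its 3 counts have a 95% Poisson interval of 0.619 to 8.77. The log2 fold change was 0.43 (standard error 0.82, 95% interval -1.52 to 2.39, adjusted p = 0.889, edgeR), and it was -0.032 without control 3. As a share of library totals, the control libraries had 10.2, 11.7 and 3.78 CPM and the CIH libraries 16.5, 12.2 and 22.0 CPM, with no overlap. The highest control library, control 2, and the lowest CIH library, CIH 2, were 0.497 CPM apart on that scale, and the 9 counts of CIH 2 have a 95% Poisson interval of 4.12 to 17.1. The log2 fold change was 0.95 with library totals (adjusted p = 0.972, edgeR) and -0.32 with upper-quartile factors (adjusted p = 0.875, edgeR). Control 2, high for the miR-193 and miR-365 pairs, was not set apart from the other libraries in miR-455-3p.

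The same libraries were then compared by the make-up of the reads of the 5 miRNAs, which does not depend on library totals or scaling factors. miR-455-5p took 76.4%, 66.8%, 74.3%, 70.6% and 60.3% of these reads in control 1, control 3, CIH 1, CIH 2 and CIH 3. In control 2 it took 9.19%, and miR-365-3p took 68.0%, against 10.9% to 24.6% elsewhere. The 5 miRNAs summed to 2818 reads in control 2 and to 238 to 681 reads in the other, shallower libraries. As a share of library totals the sums were 589.1 CPM in control 2 and 229.2 to 510.2 CPM in the others.

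**Figure D3:**
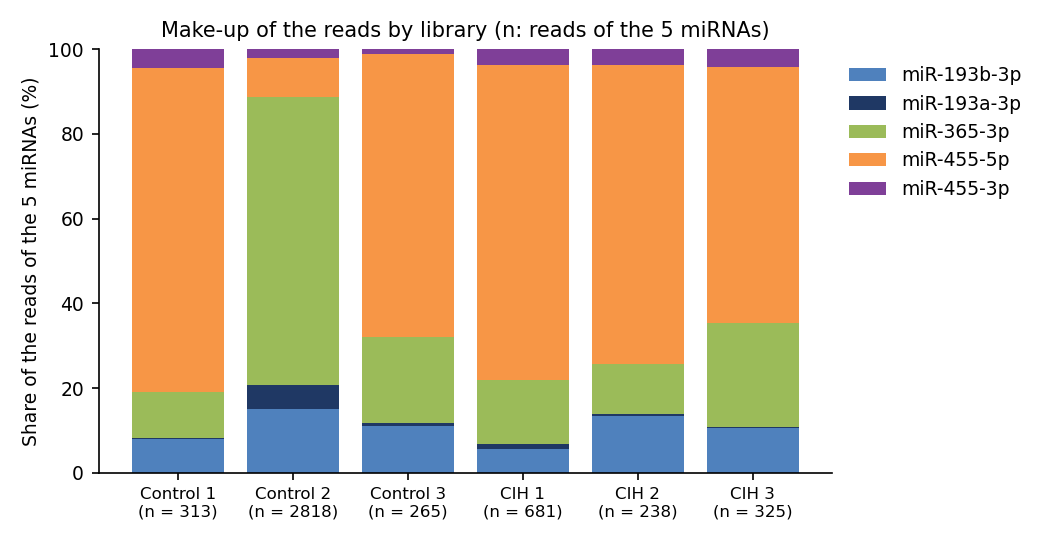
Share in percent of each of the 5 miRNAs among their summed reads in each library, with the number of reads (n) under each bar. miR-455-5p makes up 60.3% to 76.4% of the bar in 5 libraries and 9.19% in control 2, where miR-365-3p makes up 68.0%.

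Within the miR-193 family, the share of miR-193a-3p among the reads of both 3p molecules was 27.6% in control 2 (162 of 586 reads, exact 95% binomial interval 24.1% to 31.5%). It was 3.85% in control 1, 6.45% in control 3, 15.2% in CIH 1, 3.03% in CIH 2 and 2.86% in CIH 3, of 26 to 46 reads. The interval of CIH 1 (6.34% to 28.9%) overlapped that of control 2, and those of the other 4 libraries ended at 14.9% to 21.4%. Control 2 was thus high in miR-193b-3p and higher still in miR-193a-3p. All of these intervals cover counting error only, since reads amplified by PCR are not independent molecules.

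The arms of miR-455 are cut from 1 hairpin, and usually 1 arm is kept while the other is degraded. The 5p arm took 94.5%, 82.2% and 98.3% of the miR-455 reads in control 1, 2 and 3 and 95.1%, 94.9% and 93.3% in CIH 1, 2 and 3. The 5p arm was the more abundant in all 6 libraries. The exact 95% binomial interval of control 2 (77.5% to 86.3%) lay below those of the other 5, whose lowest bound was 89.1%. The 3 CIH libraries had intervals that overlapped each other.

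**Figure D4:**
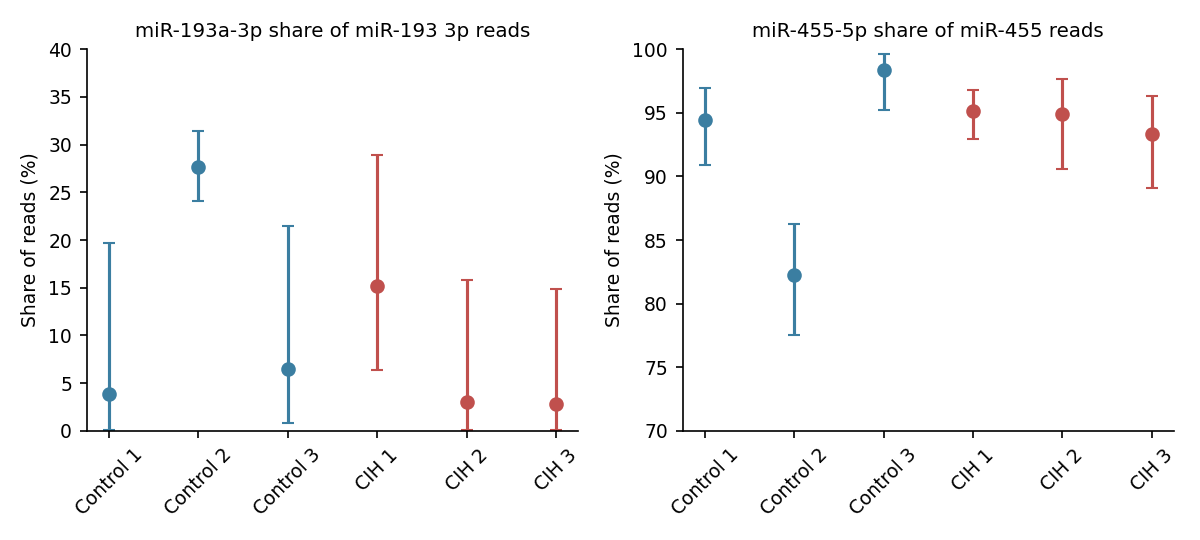
Share in percent of miR-193a-3p among the reads of miR-193a-3p and miR-193b-3p (left) and of miR-455-5p among the reads of both miR-455 arms (right, axis from 70% to 100%), with exact 95% binomial intervals, in control (blue) and CIH (red) libraries. Control 2 stands at 27.6% on the left and 82.2% on the right.

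The log2 ratios between these miRNAs within a library showed no group difference larger than their spread. The ratio of the 5p to the 3p arm of miR-455 averaged 3.97 ± 1.73 for control and 4.06 ± 0.26 for CIH on the log2 scale (SD, n = 3 each, two-sided exact permutation test, p = 0.8). The ratio of miR-193b-3p to miR-193a-3p averaged 3.01 ± 1.43 for control and 3.79 ± 1.20 for CIH (same exact test, n = 3 each, p = 0.5). The ratio of miR-365-3p to the sum of both miR-193 molecules averaged 0.96 ± 0.68 for control and 0.70 ± 0.81 for CIH (same exact test, n = 3 each, p = 0.7). Adjusted over the 3 ratios, each exact p-value was 0.8, and the smallest that 3 libraries against 3 allow is 0.1. Within the CIH group, the ratio of miR-365-3p to miR-193 ran from 0.851 in CIH 2 to 2.27 in CIH 3 on the linear scale, and in control 2 it was 3.27.

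By mean log2 CPM over the 6 libraries, the order of the levels was miR-455-5p, miR-365-3p, miR-193b-3p, miR-455-3p and miR-193a-3p. miR-455-5p was above miR-365-3p in 5 of 6 libraries, control 2 being the exception, by 1.29 ± 2.12 on the log2 scale (SD, n = 6). miR-365-3p was above miR-193b-3p in 5 of 6, the exception being CIH 2, by 0.99 ± 0.82. miR-193b-3p was above miR-455-3p in 6 of 6, by 1.73 ± 1.06, and miR-455-3p was above miR-193a-3p in 5 of 6, by 1.67 ± 1.88. The two-sided exact sign-flip permutation test over the 6 libraries gave p = 0.219, 0.0625, 0.0312 and 0.0938 for these neighbours in turn, where 0.0312 is the smallest that 6 libraries allow. Adjusted over the 4 pairs these exact p-values were 0.219, 0.125, 0.125 and 0.125, and no pair of neighbours in the order passed. The pairs were formed by sorting the same levels. Even a pair ordered alike in 6 of 6 libraries cannot pass alone after this adjustment, so the test could not decide the order of such a pair. Reads of different miRNAs are not ligated with equal efficiency, so this order is one of read counts.

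Control 2 was next set against the median of the other 5 libraries for every one of the 633 miRNAs, a comparison chosen after the values were seen and given without a test. On the log2 CPM scale (prior count 2), miR-193a-3p was higher in control 2 by 3.97 and only 5 miRNAs were raised more. miR-365-3p was higher by 3.21, with 11 miRNAs raised more, and miR-193b-3p by 1.65, with 88 raised more. miR-455-3p differed by -0.15, close to the median of -0.18 over all miRNAs, and miR-455-5p by -1.75, at percentile 25.8. Control 2 thus departed from the other libraries in many miRNAs beyond these 5. miR-193a-3p and miR-365-3p lay at the upper end of the differences, at percentiles 99.2 and 98.3. Falls in control 2 reached further than rises, with differences from -12.9 to 5.85 over the 633 miRNAs. The 2 miRNAs were thus among the largest rises and not the largest differences. Control 2 was not the only library set apart. By the same measure, the median over all miRNAs was -0.43 in control 1. Control 1 and control 2, the latter the deepest library, had reads of 487 and 552 of the 707 miRNAs, against 631 to 649 in the other libraries. In bulk tissue, more cells of a type and more RNA per cell cannot be told apart. The part that the make-up of the tissue sample or the depth of control 2 plays in its departure was not tested.

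**Figure D5:**
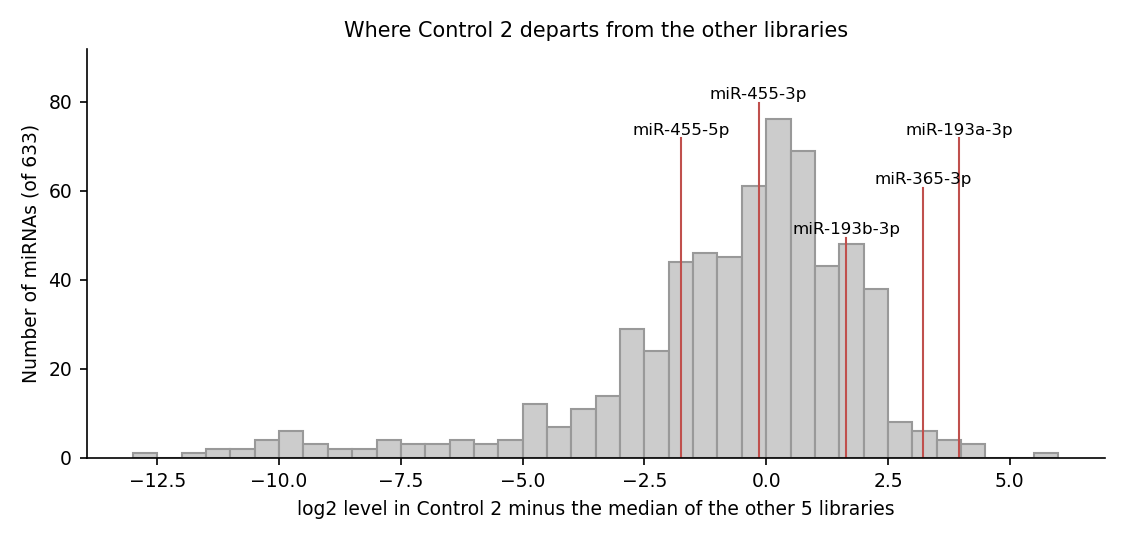
Histogram over the 633 miRNAs tested of the log2 level in control 2 minus the median of the other 5 libraries, with red lines for the 5 miRNAs. miR-193a-3p (3.97) and miR-365-3p (3.21) lie in the upper tail, and miR-455-3p (-0.15) lies beside the median of all miRNAs (-0.18). The lower tail is the longer, with values from -12.9 to 5.85.

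The profiles over the 6 libraries were compared by the root mean square distance of log2 CPM, each centred on its own mean. Candidates had to reach 10 counts in each single library, a bar that 238 miRNAs met. miR-193a-3p and miR-455-3p fell short of it and were let in as members. Other miRNAs with such low counts were left out, so the ranks below do not cover all 633 miRNAs tested. With miR-193a-3p as the reference, miR-365-3p was the 4th nearest of 239 miRNAs (distance 0.56) and miR-193b-3p the 34th (0.96). With miR-365-3p as the reference, miR-193a-3p ranked 6th and miR-193b-3p 24th, and with library totals in place of TMM miR-193a-3p ranked 15th (0.68 in place of 0.56). With miR-193b-3p as the reference, miR-365-3p ranked 99th (0.74) and miR-193a-3p 153rd. The arms of miR-455 were 0.95 apart, and miR-455-3p ranked 63rd from miR-455-5p. The miR-193 and miR-365 molecules lay farther from miR-455-5p, at 1.40 for miR-193b-3p, 1.92 for miR-365-3p and 2.11 for miR-193a-3p. Among the miRNAs that met the bar, the nearest to miR-193b-3p was MIMAT0005438 (0.18) and the nearest to miR-193a-3p was MIMAT0000128 (0.33). These distances rest on 6 libraries, of which control 2 sets most of the range for the miR-193 and miR-365 molecules.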

How the data were processed

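miRNA-seq of WAT from 3 control and 3 CIH libraries was analysed, grouped by the labels. The deposited values are the raw read counts of the authors for 707 mature miRNAs. Their trimming, aligner, miRNA database release and treatment of reads with several matches are not given in the sources used here, and such treatment could move reads between miR-193a-3p and miR-193b-3p. The miRNAs described and the lists were chosen with earlier results of these data known. Lists of other arms, brown fat miRNAs and cell types were not analysed here, since 0 accessions were paired with names by the files or the reference tables.

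The 633 miRNAs with at least 10 counts in all were tested across the whole table with edgeR 4.0.16 (TMM, quasi-likelihood, group as the only term; R 4.3.3) and Benjamini-Hochberg adjustment. Standard errors came from the fold change and the F statistic. Ratios used a pseudocount of 0.5 counts and exact permutation tests (Python 3.11.15, numpy 2.4.6, scipy 1.17.1, pandas 2.3.3). The scripts were tested on simulated data. In a chi-square comparison of counts, no libraries were alike within sampling noise. Alternatives were DESeq2 1.42.0, limma 3.58.1 with voom, 4 other scalings, 3 other filters, the replicate number as a block and each library left out. The miRNAs named were the 5 members and the nearest by profile. Sequences and positions are from RefSeq (GRCm38.p6) and GENCODE release M21. Figures were drawn with matplotlib 3.10.9.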

Additional observations from a re-analysis of the deposited data

How the results depend on the processing

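Over the alternatives, 72 of 77 log2 fold changes of the 5 miRNAs kept their direction and 0 were called, with adjusted p-values of 0.168 to 0.997 and none from DESeq2 for 2 of them. Leaving out 1 library at a time, the log2 fold change ran from -0.999 to 0.32 for miR-193b-3p, from -3.67 to 0.79 for miR-193a-3p and from -1.96 to 0.60 for miR-365-3p, each positive only without control 2. It ran from -0.032 (without control 3) to 0.85 for miR-455-3p, which was -0.32 with upper-quartile factors, and from 0.22 to 1.32 for miR-455-5p. The log2 ratio differences between the groups ran from -0.80 to 0.93 for the arms of miR-455 (below 0 without control 2 and, at -0.015, without CIH 1), from -0.038 to 1.47 for miR-193b-3p to miR-193a-3p and from -0.55 to 0.21 for miR-365-3p to miR-193 (above 0 without CIH 2 and, at 0.12, without control 2). At an adjusted p-value under 0.05, the miRNAs called numbered 0 (16 at an unadjusted p-value under 0.05) and ran from 0 to 118 without each library. The 118 were called without control 3 and were 19.2% of the 614 miRNAs tested in that fit. None of the 5 was among them, and the lowest adjusted p-value of the 5 (0.168, miR-193a-3p, edgeR) came from that fit. The 16 with an unadjusted p-value under 0.05 and at least 1.5-fold became 26 with DESeq2, 75 with limma voom, 39 with upper-quartile factors and 8 with filterByExpr, and ran from 1 (without CIH 3) to 225 (without control 3), with 6 without CIH 1 and 6 without CIH 2. The filterByExpr count rests on 407 miRNAs tested in place of 633. The counts without a library rest on 575 (without control 2) to 622 (without CIH 1) miRNAs tested. Otherwise the cause was not tested. filterByExpr and the filter of 10 counts in every library dropped miR-193a-3p, and the latter also dropped miR-455-3p.

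Replicates are numbered alike in both groups. The correlations of the deviations within the 3 numbers were 0.353, -0.116 and 0.0195. Libraries of unlike number were not correlated for comparison, so these values do not settle whether the libraries are paired. In a fit with the replicate block, 3 miRNAs in place of 16 met the unadjusted criteria, and the 5 fold changes were -0.36, -1.23, -0.42, 0.79 and 0.64 for miR-193b-3p, miR-193a-3p, miR-365-3p, miR-455-5p and miR-455-3p. Depth limits miR-193a-3p most, with 1 or 2 counts in 4 libraries.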
